A study of Mus musculus and Bos taurus with 2 samples.

Results

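In bovine embryos sampled around the activation of the embryonic genome, 1803 assembled transcript models ended in an exon that lay outside every exon of the models that matched a reference transcript exactly. These models belonged to 1129 genes and ended in 1520 distinct last exons. They were chosen from transcript models assembled from long cDNA reads by a rule on exon positions. A model entered the set if it met each of these conditions. It had at least 2 exons. The authors' comparison with the reference had given it the class code j. That code marks a multi-exon model that shares at least 1 splice site with a reference transcript but not its whole intron chain. Its gene had at least 1 multi-exon model with the class code = (the same intron chain as a reference transcript, called an exact match here). Its last exon overlapped no exon of any exact match on the same strand. Such last exons are called unmatched below. The models that met every condition but the last are called eligible: the bovine library held 8376 of them in 4118 genes, out of 40819 models in the bovine library and 82847 in both libraries. Unmatched last exons were found in 21.5% of eligible models and in 27.4% of eligible genes, and these shares describe the rule and were not tested.

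Most transcripts end where the nascent RNA is cut at a polyadenylation signal in the last exon of the gene. A transcript can also end early, when an intron is not removed but cut, or when a hidden acceptor site inside an intron joins the upstream exons to a terminal exon that the full-length transcript skips. The U1 small nuclear ribonucleoprotein, the cyclin K kinases and proteins on the tail of RNA polymerase II are known to hold such early ends back. Reading beyond the usual end can instead join a gene to an exon farther downstream. During genome activation the embryo replaces maternal transcripts with its own, and transposable elements are known to supply start sites, splice sites and ends at that time.

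Each of the 2 libraries was 1 pool of about 200 embryos produced in vitro, with no replicate, and both carried the batch label 1. The bovine library came from embryos of 8 to 16 cells taken 72 h after insemination. Their oocytes were taken from ovaries of cattle that were Japanese Black or F1 of Japanese Black × Holstein, matured in vitro and fertilized with sperm of a Japanese Black bull. The mouse library, used here only beside the bovine one, came from late 2-cell embryos at 36 h, from superovulated Slc:ICR oocytes fertilized in vitro and grown in KSOM. In both, polyadenylated transcripts were copied to cDNA, amplified with 14 PCR cycles and read on a separate nanopore flow cell. The files hold exon positions and names of models but no read numbers. Depth is therefore unknown, and a model with many reads cannot be told from one with few. Of the genes listed as markers, 11 of 20 genome activation genes, 22 of 26 pluripotency and lineage genes and 27 of 30 maternal oocyte genes had a bovine model. A model was also present for 5 of 10 cumulus and granulosa markers, 5 of 8 sperm markers and 4 of 5 blood and immune markers, whose part in the results was not tested. The 95% interval after a share is exact (Clopper-Pearson) and reflects counting error alone, and models of 1 gene are not independent.

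TDRD5, a tudor-domain protein of the germline small RNA pathway, gives a view of what these models look like. Its exact match has 18 exons at chromosome 16 from 60816426 to 60895060 on the forward strand (bosTau9, as for all positions here). A total of 7 models left that transcript early, after exon 4 or after exon 6, and ended in 6 distinct last exons of 113 to 2241 bp. The 3 ends in intron 4, which is 21.9 kb long, began 0.228, 1.27 and 6.47 kb after the donor. The 4 ends in intron 6, which is 15.7 kb long, began between 1.19 and 2.04 kb after it. All 7 TDRD5 models used the donor of the exact match and also had a first exon outside every exact match.

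BOLL, a germ cell RNA-binding protein of the DAZ family, had 6 such models on chromosome 2, reverse strand. In 5 of them the last exon ended at the same base, 86261342, in intron 6 of 10, and began at 1 of 3 acceptors, which gave lengths of 1443, 1746 and 1861 bp. The sixth followed the full-length chain to exon 10 and ended in a 367-bp exon of the last intron. CPN1, the catalytic subunit of carboxypeptidase N, had 6 models on chromosome 26: 5 ended at base 20986492 in intron 4 of 10, of which 4 had a last exon of 245 bp and 1 of 826 bp, and the remaining one ended in an 1807-bp exon of intron 2. ZNF317, a zinc finger gene on chromosome 7, showed the other main pattern. Its 6 models left the gene body from known donors and joined an exon of 144 or 147 bp at 13633438 or 13633441 to 13633584, 9.58 kb downstream of the last exon of the exact match, which none of them used.

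**Figure D1:**
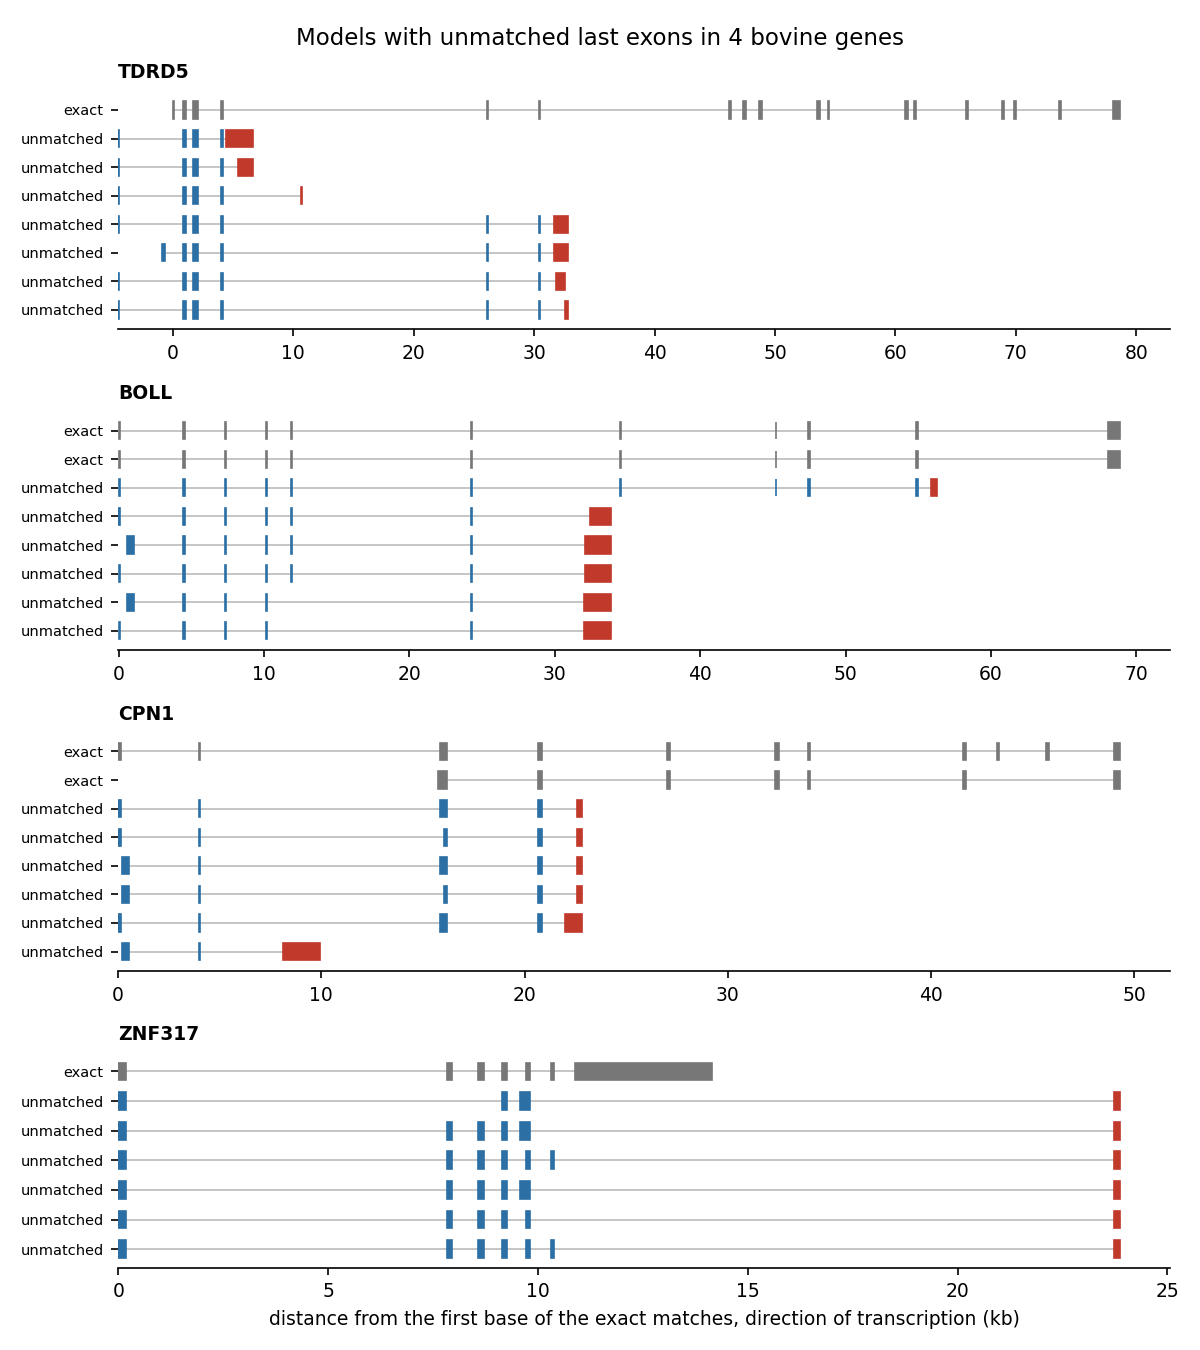
Exon maps of the exact matches (grey) and of the models with unmatched last exons (blue, last exon in red) of TDRD5, BOLL, CPN1 and ZNF317, 4 genes chosen for readability after their values were seen. The x axis gives the distance in kb from the first base of the gene's exact matches in the direction of transcription. In TDRD5, BOLL and CPN1 the red exons lie in introns of the grey models, and in ZNF317 they lie beyond their end.

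Placed against the span of the exact matches of the same gene, 1276 of the 1803 models ended inside it (70.8%, 68.6% to 72.9%). A further 464 ended downstream of it (25.7%, 23.7% to 27.8%) and 61 upstream (3.38%, 2.60% to 4.32%), and 2 lay on another chromosome or strand than the exact matches. Of the 1276 inside, 1275 had their whole last exon in 1 intron of an exact match. In 1122 of these the last exon was spliced straight from the exon just before that intron (88%, 86.1% to 89.7%). Position is read from exact matches that were assembled in this library, and not from a full annotation. The closest reference transcript had an exact match of its own for 944 of the 1803 models (52.4%, 50.02% to 54.7%), against 63.2% of the other 6573 eligible models (62.0% to 64.4%). That share was 53.1% for ends inside the gene and 57.5% for ends downstream. For the 61 ends upstream it was 0 by construction. A model that ends upstream of the exact matches lies wholly outside them and shares no splice site with them.

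Ends were not spread evenly along genes or introns. When the introns of the host transcript were divided by their order into steps of 20%, 517 of the 1275 intronic last exons fell in the first step (40.5%, 37.8% to 43.3%), and the share fell to 20.4%, 16.2%, 11.9% and 10.9% in the later steps. The first intron itself held 346 (27.1%, 24.7% to 29.7%) and the last intron 128 (10.04%, 8.44% to 11.8%). Within the intron, 548 last exons began in the 20% nearest the donor (43.0%, 40.2% to 45.8%) and 73 in the 20% nearest the acceptor (5.73%, 4.51% to 7.15%). A last exon must fit inside its intron, which leaves less room near the acceptor. In the 803 cases where the intron was at least 10 kb, the share in the 20% nearest the donor was 45.0% (41.5% to 48.5%). The median distance from the donor to the last exon was 2649 bp, with quartiles of 828 and 9985 bp.

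**Figure D2:**
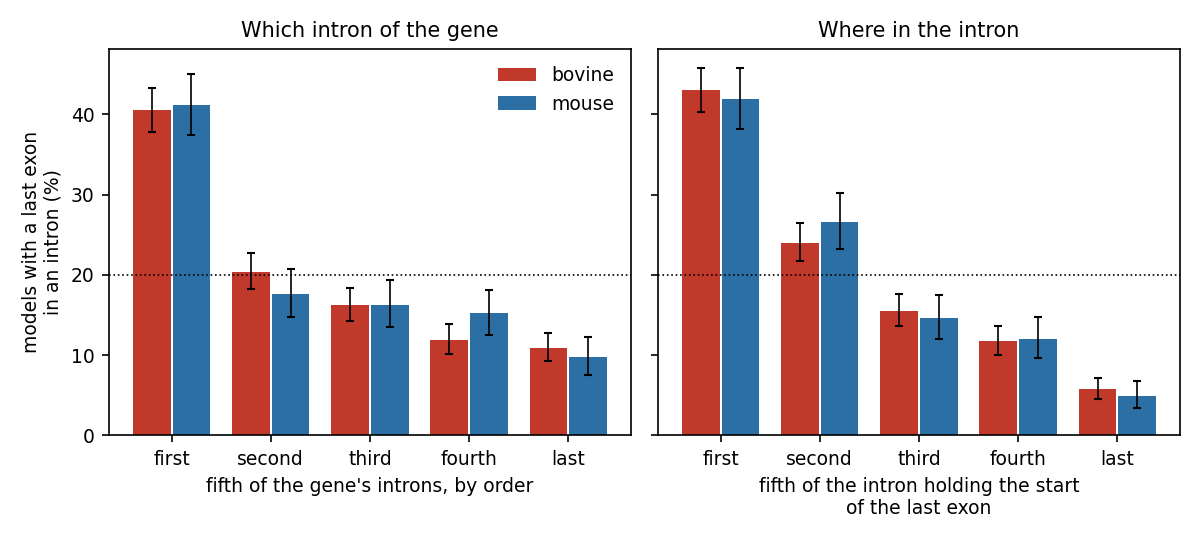
Share of models with an intronic unmatched last exon by 20% step along the order of the host transcript's introns (left) and by 20% step of the intron in which the last exon begins (right), for bovine (red, 1275 models) and mouse (blue, 658 models). Bars show percent of models, whiskers exact 95% intervals, and the dotted line 20%, an even split. In bovine the first step holds 40.5% on the left and 43.0% on the right.

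The introns that held these ends were long. Their median length was 16119 bp (quartiles 6018.5 and 38092 bp), against 1430 bp for all 39889 introns of 1 exact match per eligible gene. Of those 39889 introns, 958 held at least 1 unmatched last exon (2.40%, 2.25% to 2.56%). The share was 0.119% of introns under 1 kb, 1.86% from 2 to 5 kb, 9.18% from 10 to 20 kb and 28.1% above 50 kb (24.2% to 32.3%). Counted per length of intron, the range was narrower: 2.73 distinct last exons per Mb in introns under 1 kb, 7.504 per Mb from 10 to 20 kb and 4.36 per Mb above 50 kb. First introns held an unmatched last exon in 6.13% of cases, middle introns in 1.96% and last introns in 1.80%, and the densities were 6.78, 5.45 and 5.74 per Mb. Within 1 length class the first and middle introns differed beyond their counting intervals only from 5 to 10 kb, where 7.89% of first introns (5.70% to 10.6%) and 3.70% of middle introns (3.05% to 4.46%) held one. Among 785 genes of 3 or more introns with an intronic end in this set of introns, the longest intron held one in 387 (49.3%, 45.7% to 52.9%). The part of intron length in this share was not tested.

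**Figure D3:**
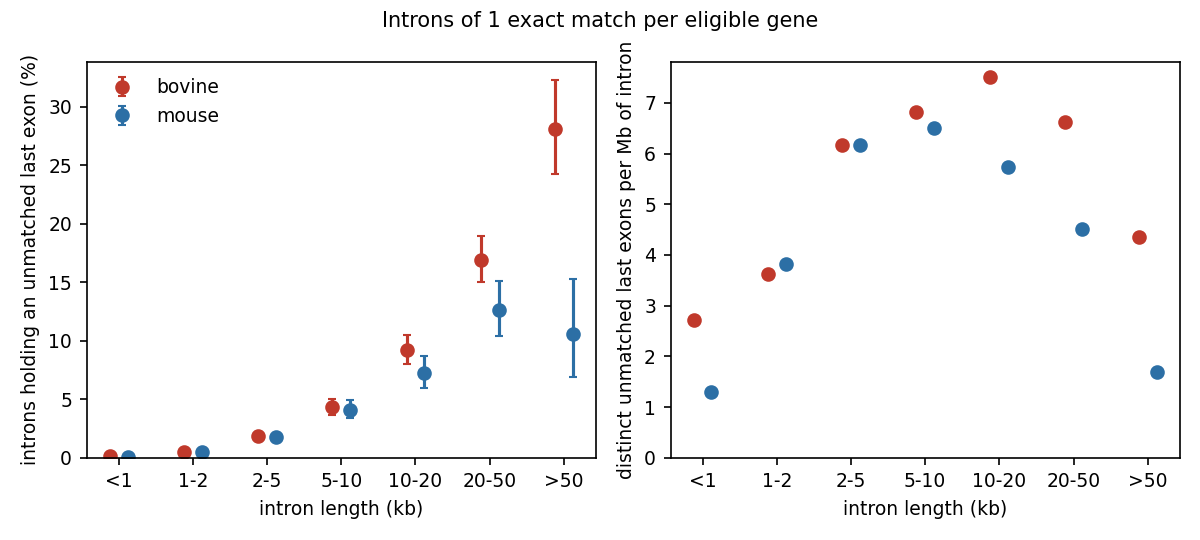
Percent of introns that hold an unmatched last exon (left, whiskers are exact 95% intervals) and distinct unmatched last exons per Mb of intron (right), by intron length in kb, for bovine (red) and mouse (blue). The bovine share goes from 0.119% under 1 kb to 28.1% above 50 kb, while its density stays between 2.73 and 7.504 per Mb.

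Single genes show the range of intronic ends. DYNC1I1, an intermediate chain of cytoplasmic dynein, had 9 such models, as many as any gene, with 4 last exons in introns 1, 4, 5 and 10 of 15 on chromosome 4. In 4 of them the end was a 240-bp exon at 13128675 to 13128914, which began 10.1 kb into the 38.1-kb intron 4. MIC1 on chromosome 23 had 6 models with 4 to 7 exons that all ended in the same 1022-bp exon, 2.20 kb into a 66.4-kb intron. Their first exons lay between 27961094 and 27961269, upstream of the MIC1 exact match, which spans 27842117 to 27913252 on the reverse strand. All 6 models had a first exon that overlapped an exact-match exon and a start group shared with an exact match. Those with a last intron of 50.2 kb were not spliced from the exon just before the 66.4-kb intron. The 6 models of GNAS, the stimulatory G protein alpha subunit, ended in 1 exon of 675 bp at 57475260 to 57475934 on chromosome 13, with 3 or 4 exons each. NAP1L4, a histone chaperone, ended in intron 1 of 14 in all 6 of its models, in exons of 1592 or 1669 bp with a shared 3′ end. CNOT2, a subunit of the CCR4-NOT deadenylase, ended in intron 1 of 15 in 3 models, in last exons that began 0.312, 1.02 and 18.3 kb from the donor. SGPP2, a sphingosine-1-phosphate phosphatase, had 5 distinct ends spread over introns 1, 2 and 4 of its 4 introns. ZNF608, a zinc finger gene on chromosome 7, had 4 distinct ends, 3 of them in the 49.3-kb intron 3.

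Of the 8 longest unmatched last exons, 4 began within 0.514 kb of the donor of an intron. PTPN1, a protein tyrosine phosphatase, had the longest, 5483 bp, which began 0.235 kb into intron 1, and another of 3774 bp in the same intron. KIFC1, a minus-end kinesin, had one of 4121 bp that began 0.449 kb into intron 1. PRPS2, a phosphoribosyl pyrophosphate synthetase, had one of 3947 bp that began 0.514 kb into intron 2. HLCS, which attaches biotin to carboxylases, had one of 3927 bp, 0.223 kb into intron 5 of 10. LOC100124497 on chromosome 18 had one of 4477 bp that began 10.2 kb into its last intron, and ATL2, an atlastin GTPase, had one of 4363 bp that began 3.30 kb into intron 2. USP2, a deubiquitinase, had one of 5030 bp in 2 models that lay upstream of its exact match, and the closest reference of those models was not itself matched. The eighth, in TET3, lay downstream of the gene and is given with its list.

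Downstream ends were mostly near the gene. Downstream distances here run from the end of the exact matches to the near edge of the last exon, not to its 3′ end. The median was 7850 bp (quartiles 1899.5 and 23832.5 bp), with 79 of 464 within 1 kb, 268 within 10 kb and 447 within 100 kb. In 415 cases (89.4%, 86.3% to 92.1%) the last exon lay inside no other gene with an exact match, in 45 it lay in a gene on the opposite strand alone, and in 4 in another gene on the same strand. ZKSCAN8, a zinc finger gene on chromosome 23, had 5 models of 7 to 10 exons that ended in a 1371-bp exon 3.57 kb downstream. All 9 models of LOC112442075 on chromosome 17 ended at base 71013812, in exons of 76, 877 or 1385 bp, and 6 of them shared the 877-bp exon 7.85 kb downstream. ZMYM2, a zinc finger co-repressor, had 5 models of 25 or 26 exons that ended in 1 exon of 667 bp, 37.7 kb downstream of its only exact match, which has 4 exons.

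The farthest ends belonged to models that lay wholly beyond the exact matches of their gene. DIAPH2, an actin-nucleating formin, had ends 902 and 735 kb beyond its exact match. IMMP2L, a subunit of the mitochondrial inner membrane peptidase, had ends at 724, 512 and 497 kb, and VPS13B, a Golgi lipid transfer protein, at 664 and 499 kb. PRELID2 followed at 279 kb. In each of these 8 ends the first exon also lay beyond the exact matches, so no part of the model joined a matched transcript. Their closest reference therefore could not be a matched one. These distances run from the matched transcripts and not from annotated gene ends. Where the closest reference was matched, the farthest of 267 downstream ends lay 104319 bp away and the median was 7695 bp. That restriction leaves out models wholly beyond the matches by construction. These 267 still include models with more exons than any match of their gene. Examples are ZMYM2, with 25 or 26 exons against 4, and DCP2, with 9 or 11 against 3. The median intron length under the same restriction was 15723.5 bp, and 615 of 676 intronic ends were spliced straight from the preceding exon (91.0%, 88.6% to 93.0%).

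The rest of the intron chain was known in some models and not in others. In 961 of the 1803 models the last splice was the only one absent from the exact matches (53.3%, 51.0% to 55.6%). Of those, 300 had just 2 exons and so no earlier intron, and 661 had more than 2 exons (36.7% of all 1803). Another 337 left from a known donor but had a further new intron earlier, 395 had both a new donor and another new intron, 81 had a new donor after a known chain, and 29 were 2-exon models with a new donor. The donor of the last intron was that of an exact match in 72.0% (69.9% to 74.1%), against 88.9% of the other eligible models (88.1% to 89.6%). The share was 89.0% for ends inside the gene (87.2% to 90.7%) and 34.9% for ends downstream (30.6% to 39.4%). A j model shares at least 1 splice site with a reference, and a model wholly beyond the exact matches cannot use their donors. The last exons of the other eligible models overlap known exons. Both comparisons are therefore tied to the selection and were not tested.

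These models had fewer exons and shorter last exons than the other eligible models, by median. The median last exon was 557 bp (quartiles 302.5 and 1039.5 bp, range 10 to 5483 bp), against 676 bp in the other eligible models and 737.5 bp in the 14092 exact matches. The median number of exons was 4, against 7 and 8, and 18.2% had only 2 exons, against 6.33% and 5.46%. The median spliced length was 1383 bp, against 1913 and 2080 bp, and the median last intron was 2760 bp, against 1362 and 1212 bp. Length is tied to the rule, since a long exon touches a known exon more readily and an early end leaves fewer exons, so no test was made. At the edge of the rule, 19 last exons abutted an exact-match exon without overlap, among them those of BSX (498 bp), DBF4 (1048 bp) and DGCR6L (471 bp), and 73 lay within 100 bp of one. Just outside it, last exons of MPHOSPH8, JPT1 and G2E3 overlapped known exons by 10, 19 and 23 bp.

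**Figure D4:**
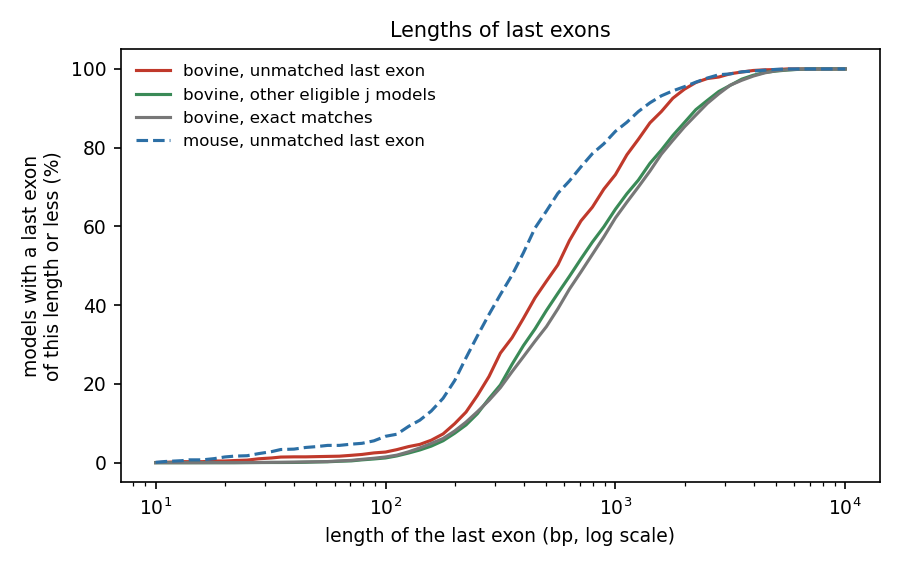
Cumulative share of models (percent) by length of the last exon in bp on a log axis, for bovine models with unmatched last exons (red), the other eligible bovine models (green), bovine exact matches (grey) and mouse models with unmatched last exons (blue, dashed). The medians are 557, 676, 737.5 and 372 bp.

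The rule set no condition on first exons, but every eligible model had to differ from its reference somewhere. The other eligible models lacked an unmatched last exon, so their difference had to lie elsewhere, first exons included. The comparison below is therefore tied to the selection. Of the 1803 models, 384 also had a first exon outside every exact match on the strand (21.3%, 19.4% to 23.3%), against 1930 of the other 6573 eligible models (29.4%, 28.3% to 30.5%), and 27.6% of all eligible models. Among ends inside the gene the share was 15.2% (13.3% to 17.3%), and among ends downstream it was 27.4% (23.4% to 31.7%). The start group, a cluster of model starts given in the file, was shared with an exact match in 64.9% (62.6% to 67.1%), against 57.2% of the others (56.0% to 58.4%). These differences are larger than counting error, but they are tied to the selection and, with 1 library, have no replicate check.

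Several models of a gene often ended in the same place. The last exon overlapped that of another model of any class in 675 of 1803 cases (37.4%, 35.2% to 39.7%), and that of another member of the set in 597 (33.1%, 30.9% to 35.3%). Of these 597, 487 had an identical last exon and 108 shared the 3′ end with a different acceptor, while 0 shared the acceptor with a different 3′ end and 2 shared neither. Alternative cleavage sites within 1 last exon therefore cannot be counted from these models as deposited. No other model had an exon on the last exon in 1097 cases (60.8%, 58.5% to 63.1%), and in 43 it overlapped a first or internal exon of another spliced model (2.38%). By count of models, 1316 of the 1520 distinct last exons belonged to 1 model, 152 to 2, 35 to 3 and 17 to more. GNAS, LOC112442020, LOC112442075 and MIC1 each had 1 last exon shared by 6 models.

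Of the 1129 genes, 739 had 1 such model and 390 had 2 or more (34.5%, 31.8% to 37.4%). They had a median of 2 eligible models, against 1 in the 2989 eligible genes without an unmatched last exon, and their exact matches spanned a median of 47604 bp, against 20134 bp. The part of either measure in the counts of genes below was not tested. By chromosome, the share of eligible models with an unmatched last exon ranged from 11.4% on chromosome 25 (7.70% to 16.0%) to 27.4% on chromosome 2 (23.0% to 32.2%) among the numbered chromosomes and X.

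The counts of each list below stand against 27.4% of all eligible genes and a median span of 25.2 kb. Among factors that cut and polyadenylate RNA, 2 of 11 eligible genes had unmatched last exons (18.2%, 2.28% to 51.8%). WDR33, the subunit that reads the polyadenylation signal, had 4 models that shared a 650-bp exon 47.1 kb downstream of its exact match. All 4 also began downstream of that match, which is not their closest reference. SCAF4, which binds the polymerase tail and holds back early ends, had 3 models. In 1 the last exon began 10.5 kb into the last intron, and in 2 it began 34 bp beyond the last exact-match exon. In the elongation list 3 of 12 eligible genes were in the set (25%, 5.49% to 57.2%). CCNK, the cyclin of the kinases that favour elongation through introns, had 3 models of 2 exons that ended in its own first intron. Their last exons began 0.377, 0.438 and 10.6 kb from the donor, and the first 2 shared the 3′ end. The cyclin T gene CCNT1 and the elongation factor gene ELL had 1 model each, with last exons that began 2.82 and 0.574 kb downstream. Among splicing regulators 4 of 31 were in the set (12.9%, 3.63% to 29.8%), namely SRSF10, HNRNPL, PTBP2 and MBNL3 with 1 model each. The median span of the 31 eligible splicing regulators was 13.6 kb, against 25.2 kb for all eligible genes.

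Genes that silence transposable elements had unmatched last exons in 5 of 11 eligible cases (45.5%, 16.7% to 76.6%), against 27.4% of all eligible genes. The median span of the 11 was 39.8 kb. MORC2, an ATPase that works with the HUSH complex, had 3 models that shared a 1083-bp exon 0.394 kb into its first intron. The HUSH subunit genes MPHOSPH8 and PPHLN1 had 1 model each. That of MPHOSPH8 abutted a known exon. CBX5, the gene of HP1 alpha, had 2 models ending in a 469-bp exon, and HELLS, a chromatin remodeler, had 2 ending in a 229-bp exon 0.113 kb into intron 6. In the DNA methylation list 3 of 9 genes were in the set (33.3%, 7.49% to 70.1%). Among them, TET3, the oxidase of methylcytosine in the early embryo, ended in a 4310-bp exon 0.426 kb downstream, and MBD1 ended in intron 16 of 17. The TET3 model also had a first exon outside every exact match, and its closest reference had no exact match. The small RNA list had 4 of 10 (40%, 12.2% to 73.8%), with TDRD5 joined by TDRKH (2 models), TDRD7 and MAEL (1 each). Chromatin modifiers and remodelers had 5 of 16 (31.3%, 11.02% to 58.7%), with 2 models each for ZMYND8 and GATAD2B and 1 each for KDM4C, SMARCA2 and CHD8.

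In the genome activation list 3 of 4 eligible genes were in the set (75%, 19.4% to 99.4%), and that interval covers the 27.4% of all eligible genes. Both models of ZSCAN4, a zinc finger gene of genome activation, ended in a 316-bp exon 6.35 kb downstream from known donors and known first exons. ZSCAN5B had 2 models that ended at the same base, in exons that began 28.0 and 27.9 kb downstream. KLF17 had 2 ending upstream of an exact match that was not their closest reference. The pluripotency list had 3 of 7 (42.9%, 9.90% to 81.6%), where KLF17 was joined by SALL4 and NR5A2. The last exon of SALL4 began 8.25 kb into its first intron, and NR5A2 ended in intron 4 of 6. Maternal oocyte genes had 1 of 12 (8.33%, 0.211% to 38.5%), a model of NLRP14. The mRNA decay and translation control list had 9 of 21 (42.9%, 21.8% to 66.0%), with a median span of 44.1 kb. It held CNOT2 and PUM2 with 3 models each, the decapping enzyme gene DCP2 with 2 that shared a 3751-bp exon 34.6 kb downstream of a 3-exon match, and IGF2BP3 with 2. CNOT9, TNRC6A, DCP1A, YTHDF3 and IGF2BP2 had 1 each. The cell cycle list had 4 of 24 (16.7%, 4.74% to 37.4%), with 1 model each for CDC25C, CCNE2, TTK and CEP290. Those of TTK and CEP290 lay wholly downstream of the exact matches. HAS2 and TNFAIP6, both of the 2 eligible cumulus and granulosa markers, had 1 model each, that of HAS2 abutting a known exon, as did LDHC among 2 eligible sperm markers, and no blood or immune marker was eligible.

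By family name, 30 of 85 eligible zinc finger genes of the ZNF, ZSCAN and ZKSCAN names (35.3%, 25.2% to 46.4%) and 83 of 235 genes with LOC names alone (35.3%, 29.2% to 41.8%) were in the set. Their median spans were 16.5 and 10.9 kb. Of 28 eligible ribosomal protein genes, with a median span of 3.44 kb, 1 was in the set (3.57%, 0.0904% to 18.3%). This was RPL36, with a last exon that began 4.01 kb downstream. Solute carriers had 21 of 70, F-box and Kelch-like adaptor genes 12 of 33, respiratory chain and assembly genes 11 of 38, transmembrane protein genes 15 of 54, and TRIM and RNF genes 5 of 34. The intervals of all lists and families drawn but those of the LOC and ribosomal protein genes cover the 27.4% of all eligible genes.

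**Figure D5:**
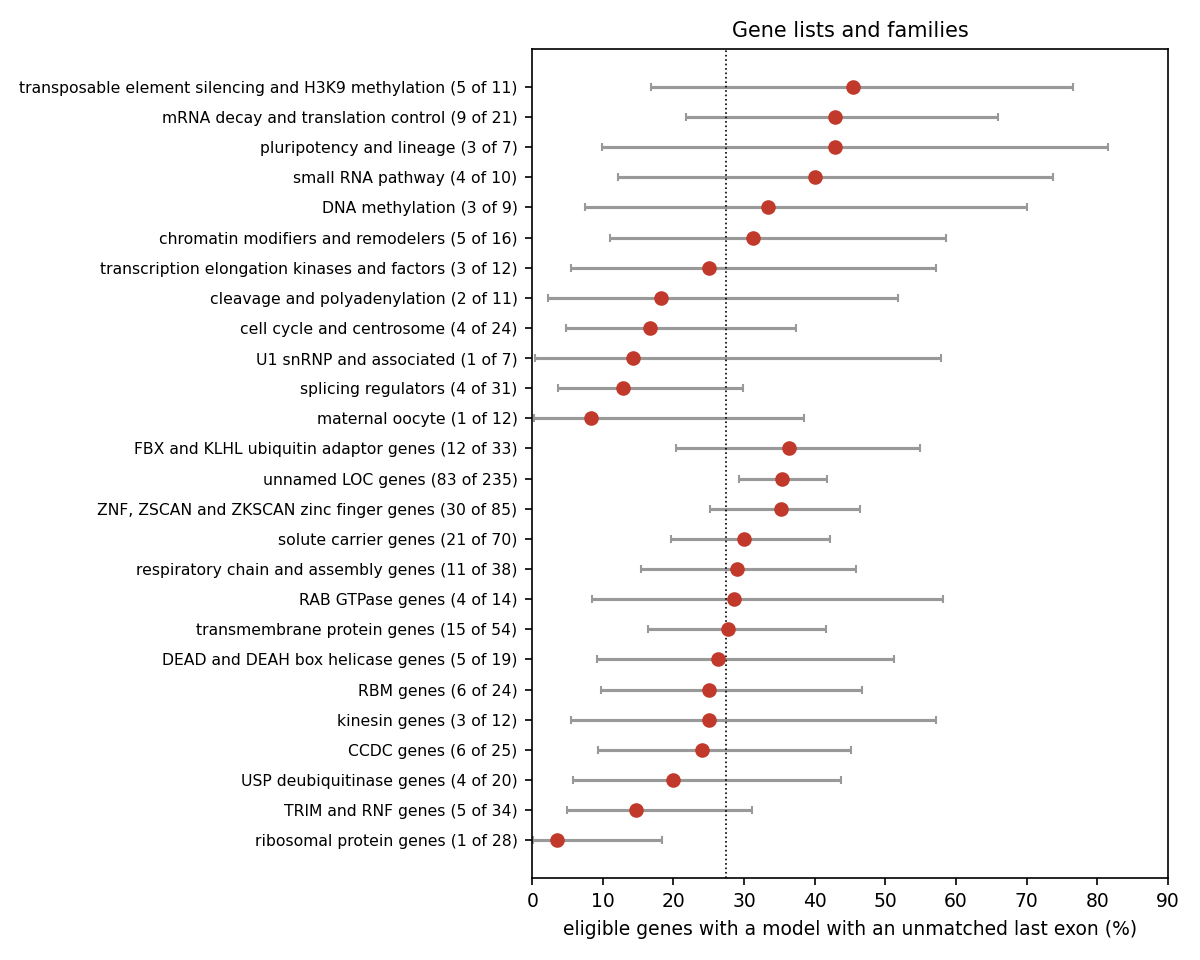
Percent of eligible genes with an unmatched last exon for gene lists and name families with at least 7 eligible genes, with exact 95% intervals as whiskers and counts in the labels. The dotted line marks 27.4%, the share of all eligible genes.

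The same rule in the mouse library gave 953 of 6243 eligible models (15.3%, 14.4% to 16.2%) in 710 of 3565 genes (19.9%, 18.6% to 21.3%). Species, stage and reference annotation differ together between the libraries and cannot be told apart, so these values stand beside the bovine ones with no test. In mouse 69.0% of the last exons lay inside the gene (66.0% to 72.0%) and 41.9% of intronic ones began in the 20% of the intron nearest the donor (38.1% to 45.8%), and both intervals overlap those of bovine. The share spliced straight from the preceding exon was 83.1% (80.0% to 85.9%), against 88% in bovine (86.1% to 89.7%). These intervals count models of a shared gene or last exon as independent and are close to each other. Whether these shares differ was not tested. Above 50 kb, 10.6% of mouse introns held an unmatched last exon (6.89% to 15.3%), against 28.1% in bovine, and the density was 1.70 against 4.36 per Mb. The median intron was shorter at 7829.5 bp, as was the median last exon at 372 bp. A first exon outside every exact match was found in 23.7% of these mouse models, against 39.4% of the other eligible ones and 37% of all. This comparison is tied to the selection as in bovine. Of the 953 mouse last exons, 574 also overlapped no exon of GENCODE release M21 (60.2%, 57.04% to 63.4%), and the rest lay on exons that this annotation holds. A bovine annotation was not used here.

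By symbol, 1338 genes were eligible in both species. Of these, 389 had an unmatched last exon in bovine and 282 in mouse, and 122 had one in both, which is 31.4% of the bovine list and 43.3% of the mouse list. A bovine one was found in 43.3% of genes with a mouse one (37.4% to 49.3%) and in 25.3% of genes without (22.7% to 28.0%). Gene length moved with this: the bovine span had a median of 52.6 kb in the former and 25.7 kb in the latter. Above the median span of all 1338 genes the shares were 53.0% (45.8% to 60.01%) and 38.3% (33.9% to 42.9%), and below it 18.8% (10.9% to 29.0%) and 14.9% (12.2% to 18.1%), where the intervals overlap. The intron could be numbered in both species for 81 of the 122 genes, with equal intron totals for 58, and 24 of these had an end in the intron of the same number. The bovine and mouse positions were not aligned. PKNOX1, a homeobox gene with 3 models in each species, ended in intron 1 of 11 in both. XPR1, a phosphate exporter, ended in introns 2 and 7 of 14 in both and in intron 11 only in bovine. The RNA-binding proteins IGF2BP3 and IGF2BP2 had an end in both species in intron 3 of 14 and in intron 2 of 15. The mouse last exons of PKNOX1, XPR1 and IGF2BP3 all overlapped exons that GENCODE holds, while 2 of the 3 of IGF2BP2 did not. PHF20 had 5 bovine models, 4 in intron 1 of 17 and 1 downstream, and its 2 mouse models ended in introns 2 and 10 of 17. PPP6R3 had 5 bovine and 2 mouse models in genes of unequal intron totals, and ZMYND8 had 2 and 5. The other genes with most models in both were GIGYF2 and GPATCH8 (2 and 4 each), WDR33 (4 and 2), CENPP and PEX14 (3 and 2 each) and DCUN1D3 (2 in each).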

How the data were processed

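Each library was deposited by the authors as 1 set of StringTie transcript models with exon positions (chromosome, start, end and strand), class codes, closest reference transcripts and start groups, per the file headers and attributes. The submitters' processing notes name the builds bosTau9 and mm10. Not given in the sources used here were the aligner, the filters on reads and the settings of the assembly. The deposited files hold positions and no read counts, signal or abundance, so depth could not set the precision of any value, and with 1 library per group no p-value was computed.

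The rule was applied with Python 3.11.15 to every model of both libraries and tested on simulated models. Donors had to be identical to the base. The host intron was the intron of an exact match holding the whole last exon, preferring a match whose donor the model used. Intron shares use 1 exact match per eligible gene. Intervals come from scipy 1.17.1.

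The models, gene lists and tests were chosen with earlier results of these data known. The host intron measures, the gene span split, the shared ends and the restriction to matched references were chosen after the positions were seen, and some family name patterns were narrowed after their members were seen. Genes were named by a rule: the 15 with most models, the 8 most shared, 8 farthest and 8 longest last exons, every listed gene, up to 12 genes found in both species and 3 genes on either side of the edge. The other family genes named, the tied genes at the end of the first rule and further shared-intron genes were chosen after their values were seen. Gene names were taken as deposited. Results for some genes chosen by the rule are not reported here.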

Additional observations from a re-analysis of the deposited data

How the results depend on the processing

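Of 31 alternatives to 9 values, 22 left the value within its 95% interval. Counting distinct last exons in place of models gave 24.8% of eligible bovine last exons in place of 21.5%, 73.0% inside the gene in place of 70.8%, and 18.6% in mouse in place of 15.3%. Among models with a known donor the bovine share was 18.2%. Alternatives added after seeing the data also moved values. Where the closest reference had an exact match the shares were 18.5% in bovine and 13.5% in mouse, with GENCODE exons also taken as known the mouse share was 9.19%, and the median host intron was 7829.5 bp in mouse in place of 16119 bp. Requiring the same acceptor lowered shared ends from 37.4% to 28.7%. The bovine share was 1.33 to 1.41 times the mouse share in the 5 settings run in both. No paired analysis was possible because each species has 1 library and no test was made.

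Depth was unknown, so a rare end cannot be told from a frequent one, and the absence of an end from a gene says nothing at unknown depth. The rule takes the assembled exact matches as the annotation, so an unmatched last exon is not shown to be absent from the reference.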
